A study of Mus musculus with 42 samples.

Results

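The intermediate tiles inside expressed genes are stretches of 100 bp in which some of the cytosines read were methylated and others were not. They were taken from a methylation table of 141251 tiles. A tile was kept when its mean over the 9 libraries was 10% or more and under 90%, when it lay between the start and the end of a gene in the expression table, and when it was more than 2000 bp from the start and the end of every gene there. This left 24444 tiles, 17.3% of all tiles and 73.0% of the 33497 gene body tiles, in 5583 of the 12883 genes that have a position. Another 5147 gene body tiles had a mean under 10%, 3906 had a mean of 90% or more, and 56362 intermediate tiles lay elsewhere. The tiles were thus chosen by their mean methylation, so their levels are a description, and the tests concern only the differences between treatment groups and the expression of the genes around the tiles.

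In the study, male mice received di(2-ethylhexyl) phthalate (DEHP), a plasticizer, at 2.5 (low) or 25 mg per kg per day (high), or vehicle alone (control, labelled unexposed), before mating, and the females received none. Methylation was read by reduced representation bisulfite sequencing (RRBS), which samples CpG-rich fragments, in sperm of 14-week-old males and in the embryonic and extra-embryonic parts of their offspring at embryonic day 7.5, the stage of gastrulation, and RNA was sequenced from the offspring. All samples are labelled wild type and male, the sperm C57BL/6 and the offspring C57BL/6 * DBA/2J. The labels give 10 RRBS samples and 4 RNA samples per treatment, whereas the tables used here hold 3 methylation and 2 expression libraries per treatment, named by treatment and number alone. The tissue behind each column is therefore not known, the methylation and expression columns may come from different tissues, and nothing states that the libraries of a group came from separate animals, so p-values measure only the spread between these libraries. In the expression libraries all 8 epiblast markers, 7 primitive streak markers and 9 visceral endoderm markers were in the table, and none of 6 sperm markers was. Also in it were 10 of 13 trophoblast markers, 6 of 8 markers of blood and endothelium and 4 of 7 markers of the maternal decidua.

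In mammalian genomes most CpG sites outside CpG islands are methylated, and the bodies of transcribed genes are methylated by the de novo enzymes Dnmt3a and Dnmt3b, which bind histone H3 trimethylated at lysine 36, a mark left by elongating RNA polymerase. Starts of genes inside CpG islands are kept unmethylated. At imprinting control regions one parental copy is methylated and the other is not, so that a read-out over both copies is intermediate. Elsewhere an intermediate value can come from mixed cells, from sites that vary between molecules or from a tile whose sites differ.

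Sequences were available for the 230 of these tiles that lie wholly inside a window around a gene start in RefSeq (GRCm38.p6). For 139 of them the start was that of the gene around the tile, at a place other than the start given in the expression table. The following 8 were picked after their values were seen, to show the span of levels from one bound of the rule to the other. Each is written 5′ to 3′ on the strand of the RefSeq gene, with every CG in capitals, since CG is where methylation is read.
Por, chr5:135688901-135689000, plus strand, 10.03%: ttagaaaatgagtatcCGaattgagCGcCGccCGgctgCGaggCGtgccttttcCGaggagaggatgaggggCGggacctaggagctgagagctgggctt
Otx2, chr14:48662701-48662800, minus strand, 14.45%: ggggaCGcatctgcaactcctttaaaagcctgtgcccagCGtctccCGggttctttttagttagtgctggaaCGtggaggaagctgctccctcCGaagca
Hoxa6, in the gene row of Hoxa3, chr6:52208801-52208900, minus strand, 19.4%: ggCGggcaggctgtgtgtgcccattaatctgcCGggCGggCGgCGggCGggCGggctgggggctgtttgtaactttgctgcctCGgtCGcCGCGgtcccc
Hymai, in the gene row of Plagl1, chr10:13090701-13090800, plus strand, 41.3%: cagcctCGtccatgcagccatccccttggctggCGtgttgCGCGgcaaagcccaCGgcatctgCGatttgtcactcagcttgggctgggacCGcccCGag
Arhgef2, first tile, chr3:88615901-88616000, plus strand, 83.7%: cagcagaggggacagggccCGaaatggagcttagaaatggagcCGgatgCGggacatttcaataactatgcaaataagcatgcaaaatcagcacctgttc
Arhgef2, second tile, chr3:88616001-88616100, plus strand, 41.8%: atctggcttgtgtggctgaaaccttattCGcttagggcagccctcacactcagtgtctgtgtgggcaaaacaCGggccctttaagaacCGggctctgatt
Sgk1, chr10:21978601-21978700, plus strand, 83.9%: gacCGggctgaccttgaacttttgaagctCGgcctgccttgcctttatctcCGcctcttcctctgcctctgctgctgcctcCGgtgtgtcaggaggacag
Patj, chr4:98410901-98411000, plus strand, 86.2%: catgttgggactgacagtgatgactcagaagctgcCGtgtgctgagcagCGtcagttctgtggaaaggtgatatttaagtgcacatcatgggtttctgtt

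Otx2 and Hoxa6 are developmental homeobox genes, and Por encodes the electron donor of cytochrome P450 enzymes. The Hoxa6 tile holds 11 CG, the tiles of Por and Hymai 8 each and the Otx2 tile 5. The tile of Sgk1, a kinase of salt and stress responses, holds 4 and that of Patj, a scaffold of cell polarity, 2. Over the 230 tiles the Spearman correlation of mean level with the number of CG was -0.56, and the median number of CG was 7 in the 145 tiles with means from 10 to 30%, 3 in the 44 from 30 to 60% and 4 in the 41 from 60 to 90%. All 230 lie near RefSeq starts and 145 of them under 30%, where 12.2% of all the intermediate gene body tiles lay. The correlation therefore does not describe all those tiles. Gene body tiles under 10% with a sequence held a median of 10 CG (577 tiles), and those of 90% and over held 5 (11 tiles). CCGG, which reads the same on both strands and is the cut site of the enzyme usual in RRBS, was in 207 of the 230, in 467 of the 577 weak tiles (80.9%) and in all 11 of the almost fully methylated ones. The adjacent Arhgef2 tiles hold 3 CG each, and their levels did not overlap in any library: the first lay between 79.6 and 89.1% and the second between 35.7 and 47.8%. Arhgef2 encodes an exchange factor that activates RhoA.

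The levels were skewed towards full methylation. The quartiles of the tile means were 54.7, 73.9 and 83.7%, 8782 tiles (35.9%) lay from 80 to under 90%, 5181 (21.2%) from 70 to under 80%, and the band with fewest tiles was 30 to under 40%, with 1063. Another 1883 tiles lay from 10 to under 20%. Intermediate tiles elsewhere had a median of 54.3%. At the lower bound of the rule the members nearest it lay in Adamts20 (10.01%), Ppp2r5a and Por (both 10.03%), and the nearest tiles left out lay in Sp8 (9.994%), Zfp697 (9.994%) and Mllt10 (9.998%). At the upper bound the nearest members lay in Rbms1, Gcnt2 and Traf3 and the nearest tiles left out in Dhx57, Epha4 and Plekha6, with means that all round to the bound itself. The tiles on the X chromosome (219) had a median of 58.9%, and those on the autosomes (24219) a median of 74.0%.

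**Figure D1:**
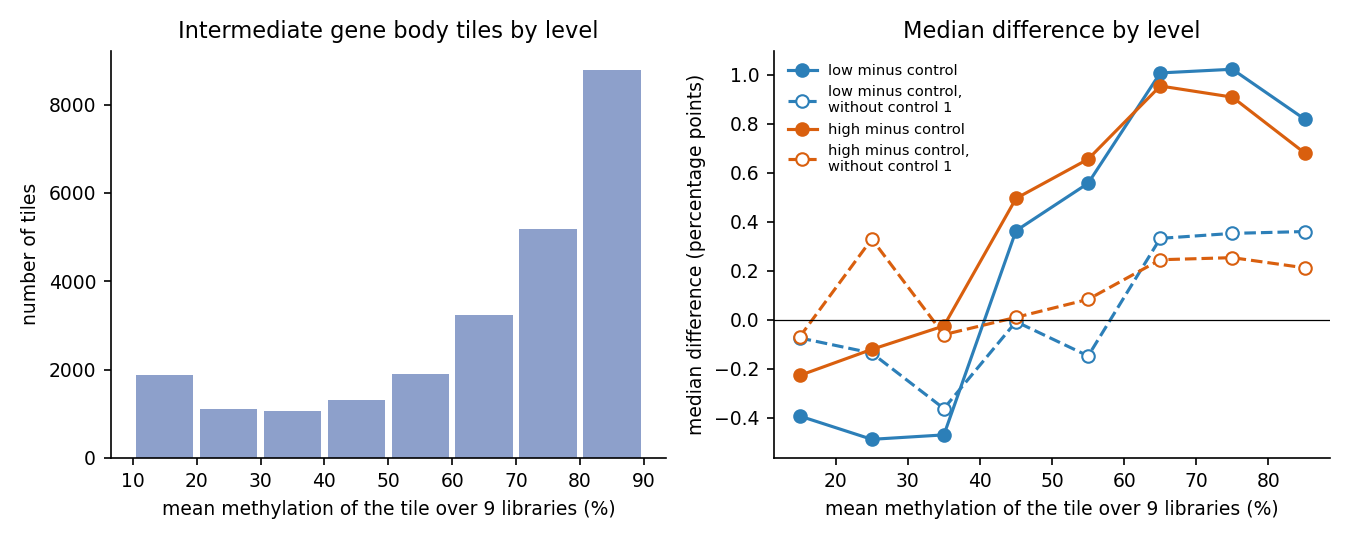
Intermediate gene body tiles by mean level over 9 libraries. Left, number of tiles per band of 10 percentage points, with 8782 in the highest band. Right, median over the tiles of each band of the difference in methylation (percentage points), low minus control in blue and high minus control in orange; open points leave out the library control 1. With all libraries the medians were negative below 40% and positive above it, and without control 1 those above 60% lay between 0.212 and 0.360.

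Levels depended on where in the gene a tile lay. RefSeq starts could be set against 23761 of the tiles, and the other 683 lie on a chromosome with no start in the table used. Of the 23761, 1193 (5.02%) lay within 500 bp of a start in that table and had a median of 20.6%. Another 1114 (4.69%) lay from 500 to 2000 bp away with a median of 46.5%, and 21454 (90.3%) lay further away with a median of 75.4%. The starts used are not complete on the other chromosomes either. The nearest start used lay 49994 bp or more from the Peg10 tiles, all of them inside its RefSeq span of 13.2 kb. Some of the 21454 may thus lie near a start that was missing. For 19104 tiles in genes with 1 known strand, the median position was 55.7% of the way from the start to the end of the gene, against 33.8% for weak tiles and 67.4% for almost fully methylated ones. The median level of the intermediate tiles was 66.2% in the 20% of the gene nearest its start and 78.2% in the 20% nearest its end.

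Tiles next to each other were alike in level. Over 5761 pairs of adjoining tiles in the same gene, the Pearson correlation of their means was 0.89 and the median difference 6.26 points, whereas over 245 pairs 5000 bp apart the correlation was 0.41. In the 3777 genes with more than 1 such tile, 47.7% of the variance in level lay between genes, and the median SD within a gene was 10.5 points. For the differences between treatment groups the correlation between adjoining tiles was 0.24 for low minus control, 0.19 for high minus control and 0.22 for high minus low, between tiles 200 bp apart (2201 pairs) it was 0.05 to 0.06, and between tiles 500 bp apart (724 pairs) it was 0.08 to 0.11.

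The 5583 genes held a median of 2 intermediate tiles, 1806 held 1, and 585 held 10 or more, together 10168 tiles. Their median span was 42.3 kb, against 23.7 kb for all genes with a position. The 10 with most tiles are long genes, several of them regulators of development. Gse1, a cofactor of a histone demethylase complex, held 141 tiles with a mean of 61.9% and a range from 10.1 to 89.2%. Camta1, a calcium-linked transcription activator, held 112. Prdm16, a zinc finger regulator of brown fat and of neural stem cells, held 73 (mean 65.3%), Wwox, an oxidoreductase, 71 (77.5%), and Zfhx3, a homeobox factor, 71 (63.0%). Cux2 held 65, Rbfox3 64, Slc39a11 57 and Casz1 54, with means of 66.3, 51.7, 69.8 and 57.9%.

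Gene positions in the expression table can be far wider than those in RefSeq. Of the 24333 tiles whose gene symbol has 1 RefSeq span, 23624 (97.1%) lay inside it. Fgfr2, the fibroblast growth factor receptor that responds to several Fgf ligands, had the next most tiles after Camta1, 89. Its row spans chr7:130162451-133123350, and 7 of the 89 lay inside its RefSeq span of 104 kb. None of the 6 tiles in the row of Trim28, the corepressor that maintains imprints, lay inside the RefSeq span of Trim28. All 6 lay inside Zbtb45, a neighbouring zinc finger gene, and are called the Zbtb45 tiles here. The row of Camta1 was closer, with 99 of 112 inside, as were those of Zfhx3 with 58 of 71 and Tet1 with 6 of 7. For Hmgb1 the number inside was 2 of 8, for Plagl1 2 of 4 and for Mest 2 of 3.

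The mean over the Camta1 tiles was 61.5, 62.1 and 63.3% in control libraries 1 to 3, 64.8, 64.3 and 63.7% at the low dose and 63.4, 62.9 and 62.8% at the high dose. All 3 low libraries lay above all the others, and the high libraries overlapped the controls. In Gse1 the same means were 61.9, 61.4 and 62.3% in the controls, 62.4, 61.1 and 62.2% at the low dose and 62.1, 62.4 and 61.4% at the high dose, which overlap throughout. Fry, an organiser of cell shape and one of the least expressed genes with 5 or more tiles, held 27 tiles, with means of 67.5, 68.0 and 68.4% in the controls, 70.8, 69.5 and 70.2% at the low dose and 67.8, 68.5 and 69.9% at the high dose. Its low libraries lay above all controls, and the high group overlapped both. Each of these genes is 1 of 5583. No test was made on gene means of methylation, here or below, and the share of genes whose groups lie apart was not counted.

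Tiles in imprinted genes lay near the middle. Of the 36 imprinted genes with expression values, 20 held intermediate tiles, 98 in all, with a median of 51.1%, and 51 of the 98 (52.0%) lay from 30 to under 60%, where 17.5% of all 24444 tiles lay. Gnas, which encodes the stimulatory G protein alpha subunit and has several imprinted starts, held 29, of which 20 lay in that window. Their mean per library was 47.4, 49.7 and 48.2% in the controls, 46.5, 50.7 and 50.04% at the low dose and 50.3, 49.4 and 48.9% at the high dose, so the groups overlapped. The Gnas tiles were not uniform: 14 tiles between chr2:174298001 and chr2:174300500 lay between 40.2 and 62.9%, while those nearest the end of the gene were at 84.0 and 88.8%. All 7 tiles of Grb10, a growth-suppressing adaptor of the insulin receptor, lay in 1 short stretch (chr11:12025601-12026900), with means from 33.5 to 52.0%.

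The Grb10 tiles averaged 47.1, 50.2 and 49.3% in the controls, 47.1, 51.8 and 40.3% at the low dose and 42.1, 44.3 and 41.6% at the high dose. All 3 high libraries lay below all 3 controls (42.7 ± 1.42 against 48.9 ± 1.63%, SD, n = 3), and the low group overlapped both. The 7 tiles were not alike. The first, at chr11:12025601-12025700, was at 52.9, 34.6 and 41.3% in the controls and 20.7, 22.2 and 13.8% in the high group. In the tile at chr11:12026301-12026400 the controls were at 41.7, 45.4 and 50.2% and the high libraries at 47.6, 65.5 and 60.95%, which overlap. None of the 7 passed the adjustment over all tiles (limma unadjusted p = 0.00555 and 0.0798 for these 2). In the 4 tiles of Plagl1, a growth-regulating zinc finger gene, the means were 55.6, 41.8 and 49.7% in the controls, 41.8, 42.1 and 40.98% at the low dose and 43.7, 48.2 and 37.6% at the high dose. The Hymai sequence above is the first of these 4, and its own values ran from 26.98% in low 1 to 58.1% in high 2.

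Several imprinted hosts surround another imprinted gene. The 3 tiles in Herc3 (61.4 to 66.4%) lay inside Nap1l5 and the 2 in Commd1 (51.9 and 63.4%) inside Zrsr1, both of them retrogenes expressed from the paternal copy. Of the 18 tiles in Trappc9 the 3 that lay inside Peg13, a paternally expressed noncoding RNA, had means of 54.4, 51.7 and 34.5%, and all 18 together had a mean of 67.1%. The 4 tiles of Impact, a regulator of translation, had a mean of 42.8% and the 3 of Mest, a paternally expressed hydrolase, 44.8%. Not all imprinted hosts were near the middle: the 3 tiles of Peg10 had a mean of 85.9%, the 3 of Zim1 85.5% and the 4 of Igf2, the fetal growth factor, 26.1%. The mean over the Peg10 tiles was 83.9, 82.9 and 84.3% in the controls, 85.5, 84.7 and 85.2% at the low dose and 88.6, 91.5 and 86.8% at the high dose, 3 groups that did not overlap. Peg10 was picked after these values were seen. Its 3 tiles all lie between chr6:4755301 and chr6:4756000, and the difference was not tested.

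**Figure D2:**
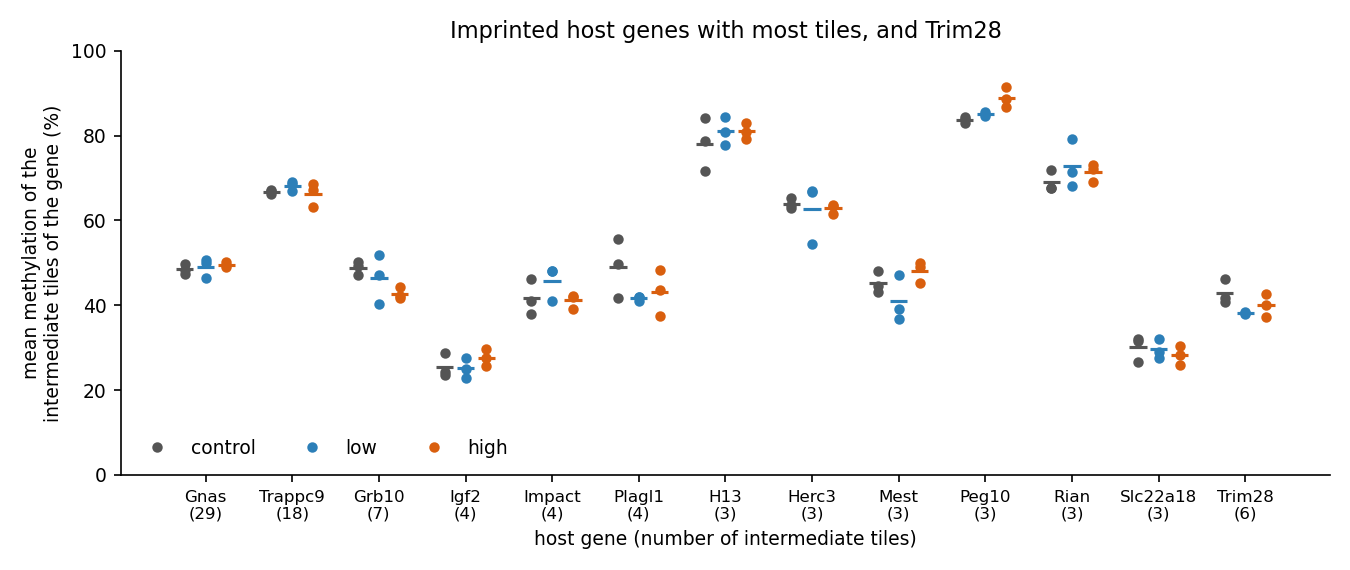
Mean methylation of the intermediate tiles of a gene in each library (points; horizontal lines, group means; 3 libraries per group) for the 12 imprinted genes with most such tiles and for the gene row of Trim28, whose tiles lie in Zbtb45; the number of tiles is in parentheses. The high libraries of Grb10 lie below its controls, and those of Peg10 above, with no test made on gene means.

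The 6 Zbtb45 tiles, with means from 29.9 to 45.9%, also lay near the middle. They are shown because the gene row that holds them, Trim28, was among the most highly expressed (1043 CPM, the unit of depth-scaled counts). They averaged 40.8, 46.2 and 41.8% in the controls, 38.01, 38.3 and 38.1% at the low dose and 42.7, 40.2 and 37.3% at the high dose. The low libraries lay below all controls (38.2 ± 0.164 against 42.9 ± 2.87%, SD, n = 3), and the high group overlapped both.

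Tiles in transcription factors of the gastrulating embryo were often low. Of the 31 with expression values, 18 held 151 tiles with a median of 28.4%, and 77 (51.0%) lay under 30%, where 12.2% of all the tiles lay. Among them Gata4, a factor of heart and endoderm, held 27 with a mean of 24.2%. Runx1, the factor of blood formation, held 25 with a mean of 61.6%, and Esrrb, a nuclear receptor of the trophoblast and of pluripotent cells, 20 with a mean of 44.4%. The library means of Gata4 lay between 22.7 and 26.1% and those of Esrrb between 42.9 and 46.1%, with the groups overlapping in both. The 19 nuclear receptor and PPAR hosts held 137 tiles with a median of 67.2%. Among them Rara, a retinoic acid receptor, held 24 (mean 44.8%) and Ppard, a fatty acid sensor, 19 (78.9%).

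The 32 signalling hosts held 300 tiles, 89 of them in the row of Fgfr2, with a median of 69.8%. Apart from Fgfr2 the most tiles were in Tcf7l1, a repressor of Wnt targets (20, mean 68.9%), Smad3, which carries Nodal and activin signals (19, 75.2%), and Gli2, which carries Hedgehog signals (18, 67.8%). The DNA methylation machinery held 50 tiles in 11 genes with a median of 80.8%, the 6 Zbtb45 tiles counted among them through the row of Trim28. Tet3, which oxidises methylcytosine, held 13 (mean 63.8%), Tet1 7 (75.2%) and the maintenance methyltransferase Dnmt1 7 (58.0%). The enzymes of H3K36 methylation held 30 tiles in 6 genes with a median of 78.7%, of which Kdm2b, an H3K36 demethylase that also binds CpG islands, held 19 (mean 69.6%). The Kdm2b means were 66.3, 68.7 and 68.7% in the controls, 72.2, 69.8 and 70.9% at the low dose and 69.7, 71.5 and 68.2% at the high dose, so that the low libraries lay above all controls. Kdm4a held 4, the H3K36 methyltransferase Nsd1 3 and Kdm4c 2. The median difference was 2.14 points for low minus control and 1.08 for high minus control in the H3K36 list, against 0.589 and 0.586 over all the tiles. Of the 30 tiles 19 were those of Kdm2b, with a mean difference of 3.045 points for low minus control and 1.89 for high minus control. The mean differences in the same order were -0.432 and 1.24 in Kdm4a, -1.15 and -2.54 in Nsd1 and 3.81 and -1.31 in Kdm4c, so the genes differed in sign. In the DNA methylation machinery the corresponding medians were -0.112 and 0.224.

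By the mean over their tiles, the highest of the genes with 5 or more were Igf2bp2 (88.8%), Med25, Def8, Ap3b1 and Dync1h1 (87.8%), of which Def8 holds none of its 5 inside its RefSeq span. Among the lowest were Matk (15.2%), Cdkn1a (15.4%), the p53-induced inhibitor of the cell cycle, and Hnrnpf (15.5%). In Igf2bp2, an mRNA-binding protein of the embryo, the library means were 88.1, 87.0 and 84.7% in the controls, 88.2, 91.7 and 90.7% at the low dose and 88.6, 88.5 and 91.4% at the high dose. All libraries of both dose groups lay above the controls there, the nearest being 88.1 in control 1 and 88.2 in low 1.

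Intermediate tiles were more methylated in genes with higher expression. The hosts were split into 5 equal bins by mean CPM over the 6 expression libraries, with bounds near 4.42, 12.5, 26.6 and 58.4 CPM. From the lowest bin to the highest the median tile was at 66.5, 71.8, 76.8, 77.7 and 80.6%, and the median of the gene means went from 65.8 to 81.3%. Across the 5583 genes the Spearman correlation of gene mean with mean CPM was 0.31, and with each library alone it was between 0.28 and 0.29. Over the 1608 genes with 5 or more tiles it was 0.26. These are correlations across genes, which are not independent replicates, and the expression and methylation columns may come from different tissues. With only tiles from 20 to under 80% the correlation was 0.11, over 3874 genes. With CPM divided by the span of the gene it was 0.27. Gene span itself had correlations of -0.03 with CPM and -0.05 with level.

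The make-up of the gene body tiles changed with expression too. The share in the intermediate class was 83.9% in the lowest bin of CPM and 58.1% in the highest, while the share at 90% or more went from 2.04 to 22.7%. The share under 10% was between 14.1 and 14.6% in the lower 4 bins and 19.3% in the highest. Among the most highly expressed genes with 5 or more tiles, Fn1, which encodes the matrix protein fibronectin (1051 CPM), had 6 with a mean of 79.2%, Hmgb1, a chromatin protein (582 CPM), 8 in its row with a mean of 43.8% (11.2% for the 2 inside its RefSeq span), and Myh9, a nonmuscle myosin (496 CPM), 5 with a mean of 87.2%. The least expressed were Cfap61 (0.860 CPM, mean 69.98%), Hdac9 (56.3%), Nxpe4 (68.3%), Mgll (70.4%) and Fry (69.0%). The median difference for low minus control was between 0.552 and 0.626 points in all 5 bins and for high minus control between 0.517 and 0.643.

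**Figure D3:**
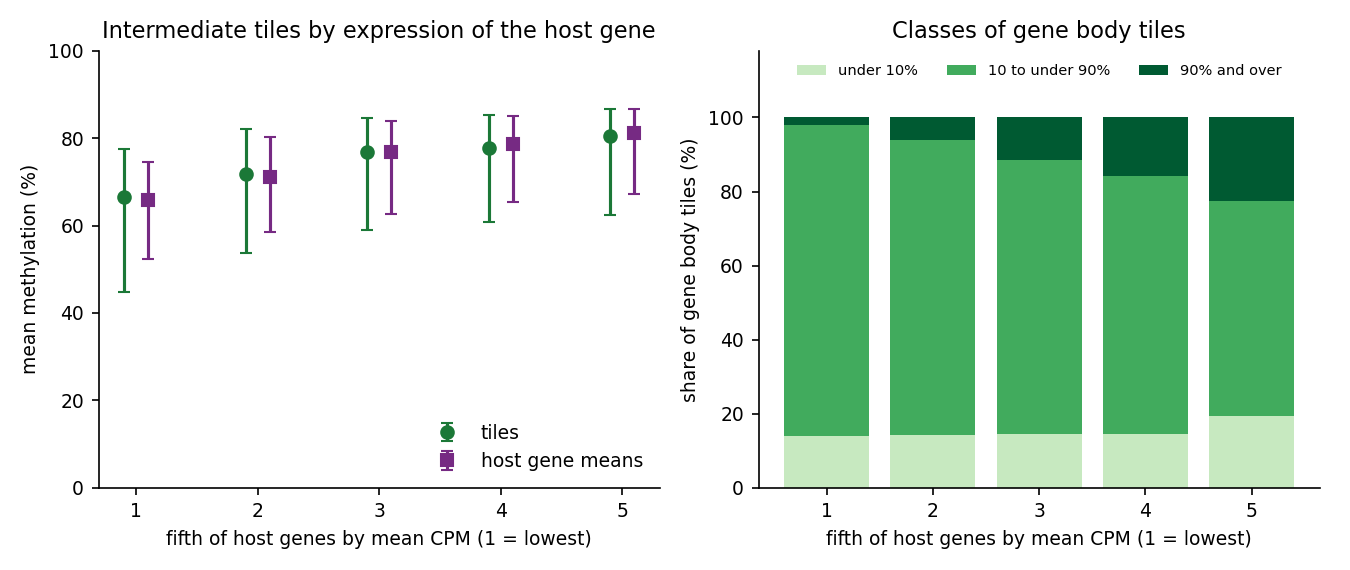
Left, methylation of the intermediate gene body tiles (circles) and means per host gene (squares) in 5 equal bins of host genes by mean CPM; points are medians and bars reach from the lower to the upper quartile. Right, share of all gene body tiles in the 3 classes of level; the intermediate share runs from 83.9% in the lowest bin to 58.1% in the highest.

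Across all 24444 tiles the treatment groups lay close together and overlapped. The mean over the tiles was 64.6, 65.3 and 66.2% in control libraries 1 to 3 (65.4 ± 0.828, SD, n = 3), 66.1, 65.4 and 66.6% at the low dose (66.02 ± 0.586) and 65.9, 66.3 and 65.8% at the high dose (65.99 ± 0.270). The lowest value was control 1, and control 3 lay above 1 or more libraries of both dose groups. The median difference per tile was 0.589 points for low minus control, 0.586 for high minus control and -0.0543 for high minus low. Without control 1 the first was 0.192 and the second 0.159. The medians were negative in tiles under 40% and positive in tiles over 40%: for low minus control -0.393 at 10 to 20% and 1.02 at 70 to 80%. Control 1 had the highest mean of the 9 libraries in the bands from 10 to 30% and the lowest in all bands from 40% on, so it lay nearer the middle at both ends. Without it the pattern of signs did not hold: the median for low minus control was -0.0743 at 10 to 20%, -0.00804 at 40 to 50%, -0.148 at 50 to 60% and 0.352 at 70 to 80%, and that for high minus control was 0.329 at 20 to 30%.

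**Figure D4:**
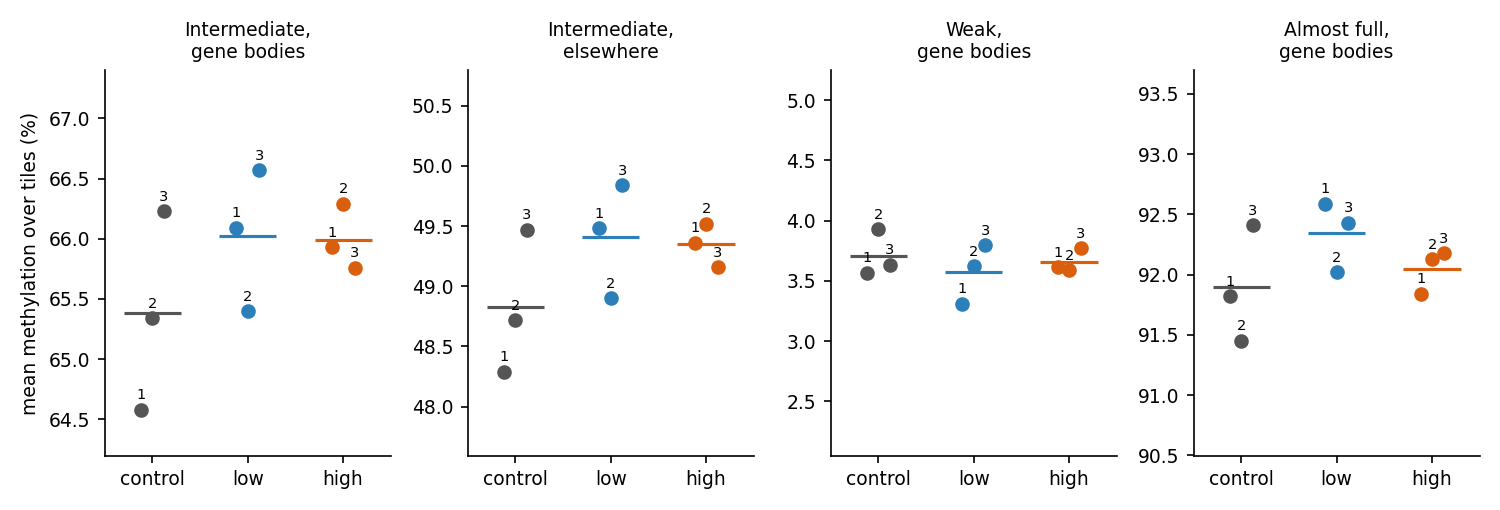
Mean methylation over the tiles of 4 classes in each library (points, numbered as the libraries are; horizontal lines, group means; 3 libraries per group). Each vertical axis spans 3.2 percentage points and does not start at 0. Control 1 is the lowest library for intermediate tiles inside gene bodies (64.6%) and elsewhere (48.3%).

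No tile passed the test. With limma on percent methylation and Benjamini-Hochberg adjustment over 141251 tiles, 0 of the 24444 were called in any of the 3 comparisons, as were 0 tiles (0%) of the whole table, and the lowest adjusted p among them was 0.183 for low against control, 0.545 for high against control and 0.494 for high against low. At an unadjusted p under 0.05, 1209 were higher in low than in control (4.95%, against 3.26% of all tiles) and 628 lower (2.57%, against 2.23%). For high against control 968 were higher (3.96%, against 2.64%) and 554 lower (2.27%, against 1.8%), and for high against low 775 were higher (3.17%, against 2.39%) and 826 lower (3.38%, against 2.32%). Without control 1 the counts for low against control were 1131 higher and 854 lower, and for high against control 889 and 687. The shares of all tiles in that fit are not given, so these counts cannot be set against them. The whole table includes weak tiles, and of those inside gene bodies 1.05% were higher and 1.44% lower for low against control. Of the intermediate tiles elsewhere 4.67% were higher and 2.83% lower for low against control and 3.67 and 2.27% for high against control, shares near those inside genes. The comparisons with control share the 3 control libraries. The libraries of the 2 groups did not overlap in 1538 tiles that were higher (6.29%, against 5.26% of all tiles) and 886 that were lower (3.63%, against 4.27%) for low against control, and in 1409 (5.76%, against 5.16%) and 908 (3.71%, against 4.07%) for high against control. For high against low the counts were 1181 (4.83%, against 4.8%) and 1269 (5.19%, against 4.76%). Differences of 10 points or more were seen in 1070 tiles (4.38%) for low, 833 (3.41%) for high and 1006 (4.12%) for high minus low, against 2.84, 2.15 and 2.51% of all tiles and 5.15, 3.85 and 4.44% of intermediate tiles elsewhere. The range of a tile over the 9 libraries had a median of 15.4 points and its SD within groups a median of 4.93.

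The tile with the smallest p for low against control lay in Plpp1, a lipid phosphatase, at chr13:112840901-112841000. Its values were 67.5, 69.5 and 72.4% in the controls, 86.8, 85.6 and 85.0% at the low dose and 74.0, 77.2 and 75.4% at the high dose. The groups did not overlap, with means of 85.8 ± 0.955% in the low group and 69.8 ± 2.49% in the controls (SD; limma p = 9.06e-06, adjusted p = 0.183). No other tile lies within 500 bp. A tile in Hcn2, a pacemaker ion channel (chr10:79724601-79724700), was at 59.5, 59.8 and 60.7% in the controls, 70.4, 69.0 and 72.2% at the low dose and 67.4, 69.5 and 68.6% at the high dose, and was among the 3 smallest p for both doses, 10.5 and 8.46 points above the controls. The adjoining tile differed by 3.31 and 0.851 points.

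The lowest p among tiles that were lower at the low dose belonged to Spred2, an inhibitor of Ras signalling (chr11:19965101-19965200). It was at 51.9, 55.9 and 58.8% at the low dose and 76.2, 73.5 and 78.3% at the high dose, and at 73.3 ± 1.90% (SD) in the controls, with a difference of -17.8 points (limma p = 5.17e-05, adjusted p = 0.384). The low group lay apart from the other two, so the same tile was first for high above low, by 20.5 points. Slc38a6, an amino acid transporter, and Cfap54, a protein of motile cilia, followed, 14.5 points lower (76.5 ± 2.62 against 91.0 ± 2.05%) and 18.04 points lower (28.7 ± 4.23 against 46.8 ± 3.99%) in the low group. Their adjusted p were 0.460 and 0.506 (limma). The tile adjoining that of Cfap54 had a mean of 81.6%, against 38.9%, and differed by -7.79 points. The Spred2 tile has 2 other tiles within 500 bp, none of them adjoining, and the Slc38a6 tile has none.

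For the high dose the smallest p was in Plag1, a growth-promoting zinc finger gene (chr4:3918201-3918300). Its tile was at 56.0, 56.3 and 58.7% in the controls, 69.2, 65.2 and 65.2% at the low dose and 70.2, 71.1 and 68.4% at the high dose. Both dose groups lay above the controls, the high group by 12.9 points (limma adjusted p = 0.545). Gnaz, a G protein subunit of neurons, was 13.2 points higher at 82.4 ± 2.04%, and its low libraries (75.2, 75.7 and 78.9%) lay between control and high. The 3 lowest p in the other direction belonged to Plxna1, a semaphorin receptor (81.5 ± 2.24 against 94.2 ± 1.26%), Gpc6, a cell surface proteoglycan (78.5 ± 1.92 against 90.6 ± 1.61%) and Mfng, a glycosyltransferase that modifies Notch (75.4 ± 3.402 against 88.6 ± 2.94%). No other tile lies within 500 bp of any of these 5.

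Between the doses the tile in Zfp865 was at 48.0, 46.7 and 46.3% in the high and 23.6, 25.0 and 27.3% in the low libraries, and that in Sez6l2 at 55.4, 54.0 and 53.6% against 36.5, 42.3 and 40.4%. In the other direction the tile in Atp11a, a phospholipid flippase, was at 77.3, 77.4 and 76.2% in the high and 92.9, 93.4 and 96.1% in the low libraries. The tile in Cdh22, a cadherin, differed by -7.70 points, high minus low. The controls lay between the doses for Sez6l2 and Atp11a. The adjoining tile differed by 2.54 points for Zfp865, 3.51 for Sez6l2 and -3.50 for Cdh22.

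**Figure D5:**
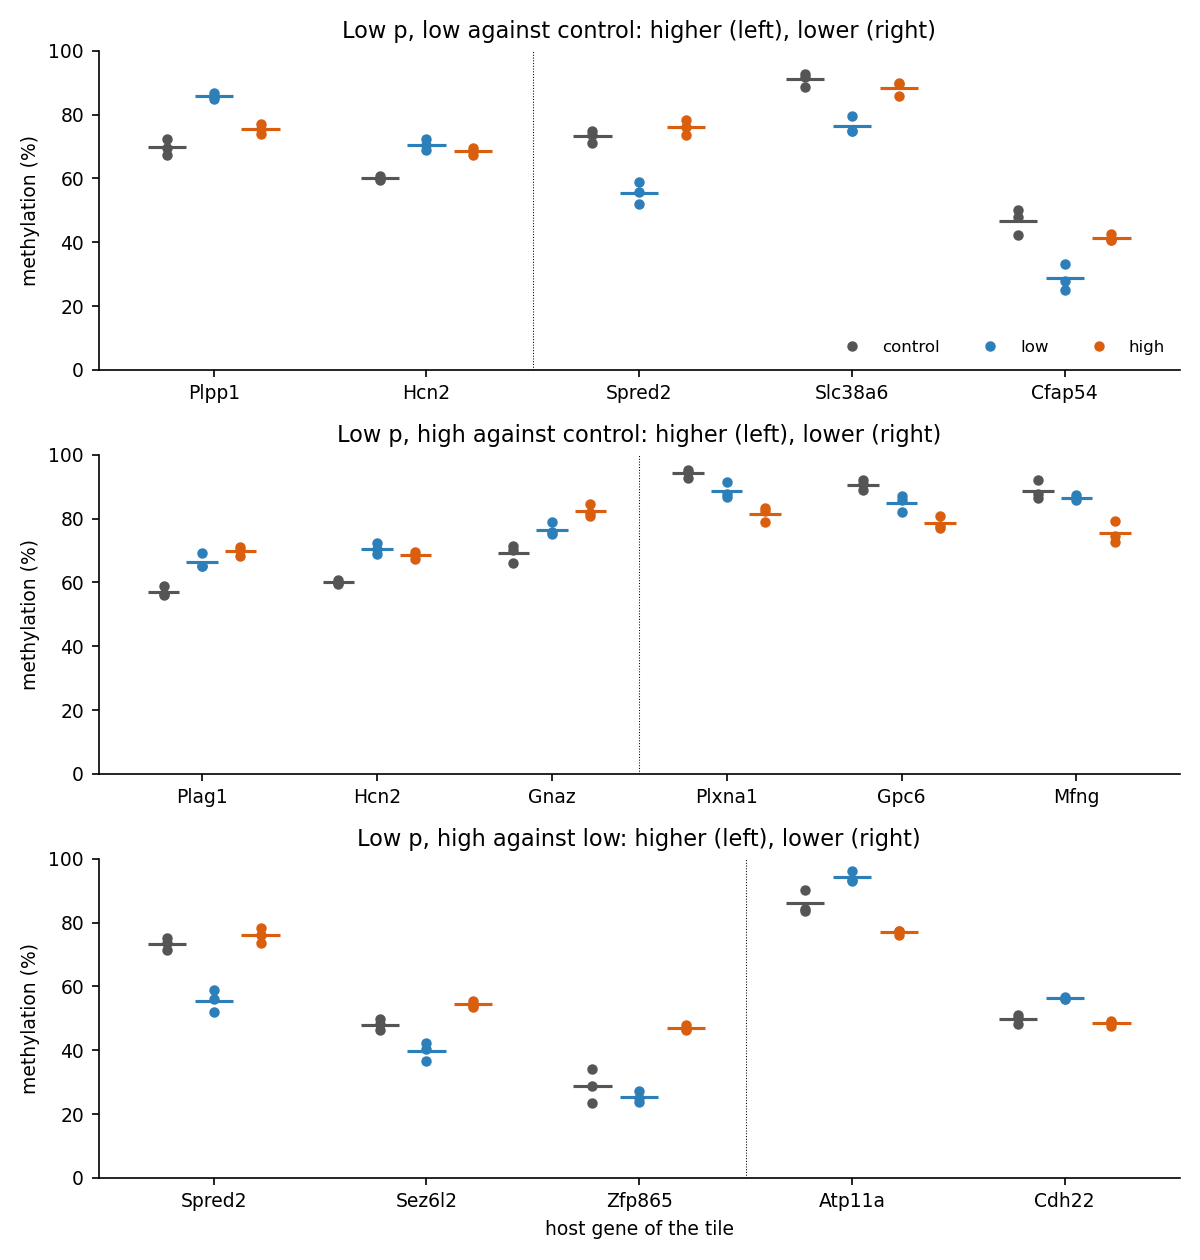
Methylation in each library (points; horizontal lines, group means; 3 libraries per group) of tiles among the 3 with the smallest p in each direction for each comparison, with the name of the gene around the tile. The groups compared do not overlap for any of the tiles shown, which were picked by their p, and no tile passed the adjustment.

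The tiles with the largest range included several in which 1 library stood apart. The tile in Nsmaf ran from 31.8% in control 1 to 91.1% in control 2, and that in Camk2d was at 5.13% in control 1 and between 40.95 and 62.8% elsewhere. In Cntnap2 the value of high 3 was 24.4% and in Xxylt1 that of low 1 was 23.1%, with all others at 48.7% or more in both. Coverage is not given, so it is not known how many reads stand behind these values.

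MicroRNA hairpins of RefSeq overlapped 15 tiles in 13 genes. The 2 tiles over Mir9-3, a neural microRNA, had means of 16.6 and 11.7%, and the first was at 20.2, 16.3 and 12.9% in the controls and 18.3, 25.5 and 22.1% in the high group, which overlap. The low libraries of that first tile, among them 10.2 and 8.66% in low 2 and low 3, lay below all the high ones. The same held for 4.83% of all the intermediate gene body tiles. In the second Mir9-3 tile the low libraries (12.5, 9.27 and 12.4%) and the high ones (9.17, 19.5 and 6.96%) overlapped. The 2 tiles over Mir26a-1, inside Ctdspl, had means of 88.2 and 88.0%, and the tile over Mirlet7e 79.3%.

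The expression of the host genes was tested in 6 libraries with limma on log2(CPM + 1). In bulk libraries fewer cells of a type and less RNA per cell cannot be told apart. Of the 5583 hosts 0 passed the adjustment over 12987 genes in the comparisons of low with control (0% of all genes), high with control (0.0077% of all genes, 1 gene, not a host) and high with low (0%), with lowest adjusted p of 0.796, 0.507 and 0.233. At an unadjusted p under 0.05, 68 hosts were higher and 222 lower in low than in control (1.22 and 3.98%, against 1.9 and 2.97% of all genes). For high against control 198 were higher and 110 lower (3.55 and 1.97%, against 3.65 and 1.64%), and for high against low 492 were higher and 152 lower (8.81 and 2.72%, against 5.69 and 2.22%). With 2 libraries per group these counts depend on single libraries, and leaving out 1 library leaves 1 in its group.

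The smallest p for low against control among hosts belonged to Gli2, at 42.7 and 39.2 CPM in the controls, 28.4 and 29.9 in the low and 38.6 and 37.5 in the high libraries (log2 fold change -0.47 ± 0.07, SE, adjusted p = 0.796). The mean of its 18 tiles was 68.9 ± 0.780% in the controls and 67.0 ± 3.27% at the low dose, which overlapped. Ror1, a Wnt5a receptor, was at 35.4 and 31.96 CPM in the controls and 20.8 and 24.4 in the low libraries, and its 7 tiles were at 75.4, 73.7 and 76.9% against 79.8, 83.8 and 78.7%, so that the groups overlapped neither in expression nor in methylation. In the high libraries the same tiles were at 75.4, 70.8 and 78.6%, which overlap the controls. Ror1 was picked by its expression p (limma adjusted p = 0.889), and its methylation means were not tested. The adjusted p of Bcan was 0.928 (limma). Bcan, a brain proteoglycan, was at 2.46 and 2.61 against 0.436 and 1.11 CPM. Nr2f6, a nuclear receptor, was the first in the other direction, at 34.8 and 33.3 CPM in the controls and 42.9 and 45.3 at the low dose, ahead of Mrps24 and Prickle1.

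For high against control Lars2, the mitochondrial leucyl-tRNA synthetase, was at 402 and 348 CPM in the controls, 511 and 449 in the low and 712 and 611 in the high libraries (log2 fold change 0.82 ± 0.11, SE, adjusted p = 0.507), with 3 tiles at a mean of 80.2%. Esrrb was at 1.06 and 1.07 CPM in the controls, 3.17 and 0.747 in the low and 7.02 and 5.77 in the high libraries, while its 20 tiles had means of 43.9 ± 0.984% in the controls and 44.7 ± 0.917% in the high group. Its adjusted p (limma) was 0.866, and 0.00718 without low 1 and 0.00657 without low 2. Thsd4 was also among the first upwards, and Fst, Tcf7l2 and Bcl11a led downwards with log2 fold changes of -0.34, -0.32 and -0.50. The trophoblast markers, of which 10 of 13 were in the table and Esrrb is 1, summed to 393 and 326 CPM in the controls, 396 and 390 in the low and 403 and 459 in the high libraries. This sum was highest in the high libraries, and the part of these markers in the result was not tested. The 8 epiblast markers summed to 1878 and 2232 CPM in the controls, 2462 and 1926 in the low and 1761 and 1527 in the high libraries. The 7 streak markers summed to 538 and 551, 617 and 567, and 489 and 403 CPM in the same order. Both sums were thus lowest in the high libraries, and their part in the results for the high dose was not tested. The 9 visceral endoderm markers summed to 2296 and 1083, 1752 and 2063, and 1826 and 2467 CPM, with the groups overlapping. The 4 decidua markers summed to 12.9 and 13.4, 9.74 and 15.2, and 17.4 and 19.7 CPM. That sum was highest in the high libraries, and its part in the results was not tested.

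The largest fold among the named hosts was that of Cdx1, a caudal homeobox gene, at 51.7 and 41.2 CPM in the high and 2.56 and 7.54 in the low libraries (log2 fold change 3.10 ± 0.43, SE, adjusted p = 0.233). Its controls differed from each other, with 20.6 and 9.72 CPM. Fbn1, Thsd4 and Dclk1 had the same adjusted p as Cdx1 (limma, 0.233). Leaving out 1 library, the log2 fold change of Cdx1 ran from 2.465 to 3.726. Its single tile was at 57.6, 69.7 and 66.4% in the high and 64.9, 68.8 and 65.8% in the low libraries. Fbn1, a matrix protein, was at 11.3 and 11.3 against 5.28 and 6.69 CPM, and Dclk1, Wnt2b and Adcyap1r1 led in the other direction. Across all 5583 hosts the Spearman correlation of the difference in methylation with the log2 fold change in expression was -0.02 for low against control, -0.0038 for high against control and -0.0089 for high against low. Over the 1608 hosts with 5 or more tiles it was -0.09, -0.04 and -0.02, and over the 585 with 10 or more -0.06, -0.10 and -0.00035.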

How the data were processed

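The study measured methylation by RRBS and expression by RNA sequencing. The authors deposited percent methylation per 100 bp tile; coverage is not in the table, the depth behind a tile is unknown and no interval is given. Expression is in CPM, as deposited, and 3 lines without a gene (20.8 to 22.9% for reads without a unique alignment) were left out of tests. Depth in reads is unknown. Bismark, methylKit, TopHat and edgeR are among the tools, and mm8 and mm10 the builds, in the submitters' processing notes, with no role given. All 10634 tiles inside RefSeq GRCm38.p6 start windows held a CG, against 85.8 to 88.1% after shifts of 3000 or 30000 bp, so GRCm38 was used. The genes were matched by symbol.

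Tests used limma 3.58.1 in R 4.3.3, 1 fit of all tiles (6 residual degrees of freedom) and 1 of the 12987 genes with 1 CPM or more in 2 libraries (log2(CPM + 1), mean-variance trend, 3 residual degrees of freedom), with Benjamini-Hochberg adjustment and a threshold of 0.05. The scripts were tested on simulated data. A tile in several genes was given to the one with the highest mean CPM. The members and gene lists were chosen with earlier results of these data known. Named tiles and genes are the 3 with the smallest p per comparison and direction, the 10 hosts with most tiles, the 5 at each end of expression and of level among hosts with 5 or more tiles, up to 4 per list, and the 5 tiles with the largest range; predicted genes were passed over. Items of that rule withheld for evaluation are not reported here. Other imprinted hosts, the microRNA tiles and the printed sequences were chosen after their values were seen. Alternatives were other scales, filters, centrings, bounds and libraries left out.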

Additional observations from a re-analysis of the deposited data

How the results depend on the processing

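No intermediate gene body tile was called with a logit scale, a mean-variance trend, median centring, the compared groups alone or each library left out. Other alternatives kept the main fit and its adjusted p and only narrowed the tiles. These were bounds of 20 and 80%, a distance over 5000 bp and tiles in exactly 1 gene row. Chosen after seeing the data were tiles inside the RefSeq span of their gene or 2000 bp or more from the RefSeq starts used, which are not complete. These narrowed sets hold no called tile by construction, because the main fit called none. Leaving out 1 library, the median difference ran from 0.192 to 0.957 points for low against control, from 0.159 to 0.970 for high against control and from -0.373 to 0.186 for high against low, where the sign thus changed. No coverage minimum could be applied, because no coverage is given. Same-numbered methylation libraries of different groups did not deviate together across tiles (correlations from -0.0329 to 0.0286). These correlations leave out shifts of a whole library and cover no expression library, so they cannot show whether the numbers pair libraries. Of the intermediate tiles elsewhere, 0.284% were at 0% in control 1 and 0.287% in low 1, against 0.0337% in high 1. With the number as a replicate block 0 tiles and 0 hosts were called in each comparison. The block is balanced, so the medians (0.589, 0.586 and -0.0543) are the same by construction. Calls among hosts moved with the libraries in the fit: with the compared groups alone 1 host was called for high against control and 4 for high against low, and leaving out 1 library the counts ran from 0 to 36 for low against control, 0 to 1 for high against control and 0 to 189 for high against low, the lone library left in a group being assumed to vary like the others. The cause was not tested. With bounds of 20 and 80%, which leave fewer tiles, 676 were higher and 382 lower at an unadjusted p under 0.05 for low against control, then 563 and 279 for the high dose against control. Between the doses these counts were 494 and 443. Their shares of the narrowed set are not given, so the counts cannot be set against the shares of all tiles. The correlation of level with host expression was 0.31 and became 0.109 with bounds of 20 and 80%, 0.320 over 5000 bp from gene ends, 0.309 in exactly 1 gene row, 0.272 with CPM per kilobase of span, 0.316 inside the RefSeq span and 0.378 away from RefSeq starts; it was 0.304 to 0.305 leaving out 1 library. Ror1, Bcan, Esrrb, Fbn1, Cdx1, Thsd4 and Dclk1 passed the threshold with a library or a group left out. Without control 1 the median difference changed sign in tiles at 40 to 50% (from 0.363 to -0.00804) and 50 to 60% (from 0.557 to -0.148) for low against control and at 20 to 30% (from -0.121 to 0.329) for high against control.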
